A study of Mus musculus with 24 samples.

Results

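The transcripts described here encode 10 transcription factors of the myeloid lineage: Cebpa, Cebpb, Cebpd, Cebpe, Spi1, Irf8, Gfi1, Runx1, Ikzf1 and Fli1. They were chosen by name, through the transcript accession of each 3′UTR interval, and took up 26 of the 39419 lines of each table, or 10 of 20868 genes. All 10 passed the filter on low counts in every comparison. The libraries came from mouse preleukemic stem cells (preLSC) analysed by SLAM-seq, in which 4-thiouridine built into new RNA is alkylated and then read as C in place of T, to ask whether loss of the uridylyl transferases TUT4 and TUT7 changes the stability of mRNA. Both genotypes were made from c-Kit+ fetal liver cells of mice with floxed Tut4 and Tut7. The cells were transduced with retroviral Meis1 and Hoxa9 and replated in SCF, IL-3, IL-6 and GM-CSF. The cDKO group also carried Vav-iCre, a Cre transgene active in blood cells, and the control group came from littermates without it. Before the chase the cells spent 12 h in 2.9 µM 4-thiouridine (4SU), and RNA was taken after 0, 60, 180 or 540 min in 4SU-free medium. There were 3 biological replicates of each genotype and time, 24 libraries in all. Chase time is also what the labels name as batch, so that every genotype comparison at a given time lay within a batch.

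Myeloid cells arise under a small set of DNA-binding proteins. RUNX1, FLI1 and IKAROS (Ikzf1) act in stem and progenitor cells, PU.1 (Spi1) and C/EBPα (Cebpa) set the granulocyte-monocyte program, IRF8 favours monocytes and dendritic cells, and GFI1 and C/EBPε (Cebpe) favour granulocytes. Their mRNAs are generally short-lived, and some carry AU-rich elements in the 3′UTR, at which decay factors can bind.

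Each library held 4380238 to 7041311 reads in 3′UTRs. Abundance is given below as reads per 1000000 reads in 3′UTRs (CPM), and labelling as the percentage of covered T positions read as C. At 0 min the library-wide rate was 1.64 ± 0.0261% in control libraries against 0.736 ± 0.169% in those of cDKO (SD, n = 3), with cDKO replicate 3 lowest of the cDKO libraries at each time. At 0 min Tut4 stood at 68.1, 75.2 and 86.3 CPM in control and 17.8, 30.2 and 18.6 CPM in cDKO, and Tut7 at 40.3, 34.6 and 45.1 against 16.7, 19.2 and 20.2 CPM. Both were therefore lower in every cDKO library, though still detected. These reads fall in the 3′UTR, and whether it lies in the deleted part of either gene is not given in the sources used here. Of the haematopoietic markers, Ptprc was detected in all libraries and the 3′UTR of endogenous Meis1 was at 0 in all 12 control libraries and at 0 to 5.26 CPM in those of cDKO. Mpo, the granule peroxidase of myeloid progenitors, ranged from 472 to 764 CPM in control. It ranged from 172 to 220 CPM in cDKO replicate 1, from 7.12 to 11.5 CPM in replicate 2 and from 0.712 to 2.09 CPM in replicate 3, so that the cDKO replicates stood far apart from each other.

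The 3′UTRs of 4 of the factors hold the AU-rich heptamer TATTTAT, a core of AU-rich elements. The matches were read from GENCODE vM39 transcripts of GRCm39, on the sense strand and cut to the length of the authors' interval. For 3 factors no transcript matched the interval in length and T count, and the transcript of nearest length was read. These were Gfi1 (1083 against 1085 bases), Cebpb (506 against 520) and Spi1 (362 against 365). The matches are shown because conversion decay is measured over 3′UTRs. Capitals mark the heptamer, and the numbers are positions counted from the first base of the 3′UTR.
Cebpd, 1108 to 1114 of 1414: ttggacattTATTTATtgtaacaga
Irf8, 1449 to 1455 of 1519: gtgtccaaaTATTTATttttgtatt
Gfi1, 1038 to 1044 of 1083: gcataatcaTATTTATtagaatgtt
Runx1, 540 to 546 of 4189: atccctagaTATTTATgtatcttga
Runx1, 2528 to 2534 of 4189: tcaagccccTATTTATaattttaac
Runx1, 3359 to 3365 of 4189: actcaattgTATTTATgtatgtaaa
TATTTAT was present in 33.1% of the longest 3′UTRs of 20297 genes. Among 3′UTRs of similar length the share was 30.6% for Cebpd, 32.3% for Irf8, 24.9% for Gfi1 and 57.6% for Runx1. The pentamer ATTTA, which lies within TATTTAT, occurred 14 times in Runx1, 5 times in Cebpd, 4 times each in Fli1 and Ikzf1, and 2 times each in Irf8 and Gfi1. It was absent from the 3′UTRs of Cebpa, Cebpb, Cebpe and Spi1, while 74.1% of all 3′UTRs held it. Among 3′UTRs of similar length that share was 81.9% for Cebpa, 50.9% for Cebpb, 19.35% for Cebpe and 41.6% for Spi1. CTACCTC, the complement of the let-7 seed, was in none of the 10 stretches searched and in 12.3% of all 3′UTRs. The annotated 3′UTRs run to 2900 bases in Cebpd, 3745 in Irf8, 3605 in Ikzf1 and 179 in Cebpe, and the part beyond the interval was not searched. The shares over all genes are from whole longest 3′UTRs, so the 2 are not over like sequence. These matches describe the letters only.

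Irf8, Runx1, Cebpb, Cebpd and Spi1 transcripts were lower in cDKO than in control at all 4 chase times, and Cebpe transcripts were higher. Fli1 and Ikzf1 were called lower at some of the times only, Cebpa was higher at 60 and 180 min, and Gfi1 did not pass the test at any time. At 0 min 1 factor was called higher and 5 lower (edgeR quasi-likelihood test, Benjamini-Hochberg adjusted p under 0.05), where 13.4% of 10186 genes tested were called, 6.72% higher and 6.64% lower. At 60 min 2 were higher and 7 lower, against 9.97% and 10.2% of genes (20.2% in all). The counts were 2 and 6 at 180 min, against 9.1% and 9.78% (18.9% in all), and 1 and 7 at 540 min, against 8.89% and 10.4% (19.2% in all). The calls in 1 direction at all 4 times numbered 6 of the 10 (8.31% of 9896 genes), 5 of them lower (4.39%) and 1 higher (3.92%). In CPM the genotypes did not overlap for 7, 9, 9 and 8 of the 10 at 0, 60, 180 and 540 min, against 33.4%, 38.4%, 37.3% and 37.1% of genes. They did not overlap in the same direction at all 4 times for 7 of the 10, these 6 and Fli1, and for 14.4% of genes. In cDKO the libraries of a replicate number deviated together across times (correlations of 0.30 to 0.80). The 4 times are therefore not independent comparisons. The median log2 change of the 10 factors was -0.48, -0.40, -0.43 and -0.59 at 0, 60, 180 and 540 min, where the median of all genes lay within 0.01 of 0 at each time. With cDKO replicate 3 left out, 7, 9, 9 and 8 of the factors were called at the 4 times. Without control replicate 2 these counts were 4 at 0 min, 6 at 60 min and 5 at 180 min, and without control replicate 1 they were 5 at 0 min and 5 at 180 min. In these bulk samples, fewer cells of a type and less RNA per cell cannot be told apart.

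**Figure D1:**
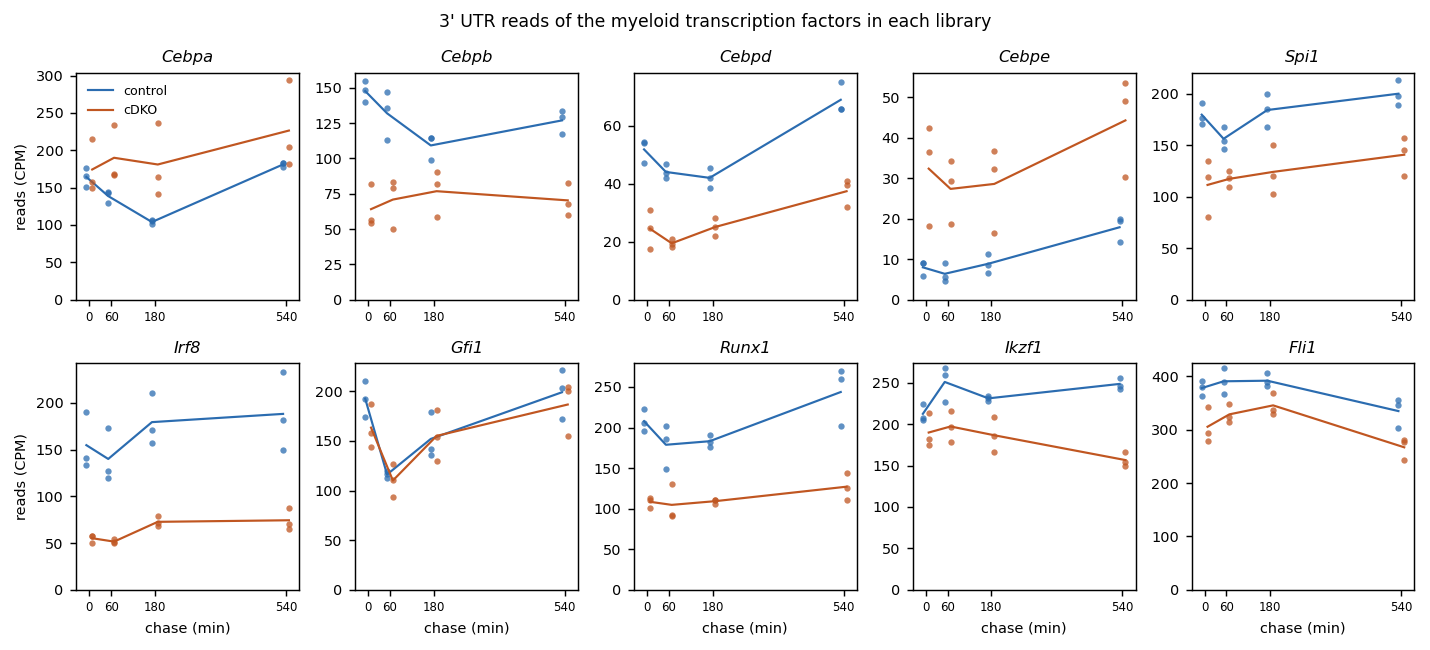
Abundance of the 10 factors in each of the 24 libraries, in CPM of 3′UTR reads (vertical axis, each panel with its own scale) against chase time in min. Points are libraries and lines join the means of 3 replicates (blue, control; orange, cDKO). The genotypes do not overlap at any time for Irf8, Runx1, Cebpb, Cebpd, Spi1, Cebpe and Fli1, while those of Gfi1 overlap at all times.

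Runx1 and Fli1 act early, in the emergence and upkeep of blood stem cells, where RUNX1 binds DNA with CBFβ and FLI1 is an ETS protein. Runx1 (mm10 chr16:92601466-92605654, minus strand, 3′UTR) at 0 min was at 195, 223 and 205 CPM in control replicates 1 to 3 and at 111, 114 and 101 CPM in cDKO. Every control library was thus above every cDKO library, by a log2 difference of -0.92 ± 0.10 (SE; edgeR adjusted p = 0.000522). At 60, 180 and 540 min the log2 differences of Runx1 were -0.79, -0.76 and -0.95, with adjusted p of 0.00479, 0.000154 and 0.00126 by edgeR. Fli1 (chr9:32422204-32423775, minus strand, 3′UTR) was at 381, 363 and 391 CPM in control and at 295, 279 and 343 CPM in cDKO at 0 min. The genotypes did not overlap for Fli1 at any of the 4 times, and its log2 difference was -0.29 ± 0.10 at 0 min (edgeR adjusted p = 0.0788). It passed at 60 min (-0.27, adjusted p = 0.0262) and at 540 min (-0.33, adjusted p = 0.0249), but not at 180 min (-0.20, adjusted p = 0.0853, all by edgeR). Without cDKO replicate 3 it passed at 0 and 180 min too (adjusted p = 0.0238 at 180 min). The calls of Fli1 were lost without control replicate 1 at 60 and 540 min, with adjusted p of up to 0.104 and 0.108 over all settings, and also without control replicate 2 or cDKO replicate 1 at 60 min and without control replicate 3 or cDKO replicate 1 at 540 min.

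Ikzf1 encodes IKAROS, a zinc finger protein best known for its part in lymphoid fate and in restraining self-renewal. Ikzf1 (chr11:11769582-11772926, plus strand, 3′UTR) at 0 min was at 207, 205 and 225 CPM in control and at 174, 213 and 182 CPM in cDKO, and the genotypes overlapped. At 540 min it was at 256, 243 and 247 CPM in control and at 154, 166 and 150 CPM in cDKO, with no overlap. Its log2 difference was -0.14 ± 0.11 at 0 min (adjusted p = 0.453), -0.37 at 60 min (0.0185), -0.33 at 180 min (0.0289) and -0.67 ± 0.07 at 540 min (0.000363, edgeR adjusted p throughout). The call at 540 min held with each replicate left out. Those at 60 and 180 min did not (adjusted p of up to 0.0921 and 0.1003), being lost without control replicates 2 or 3 or cDKO replicate 1, and at 180 min also without control replicate 1.

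PU.1 is the ETS factor that opens myeloid enhancers, often together with a C/EBP or IRF protein. Spi1 (chr2:91115395-91115759, plus strand, 3′UTR) at 0 min was at 171, 191 and 177 CPM in control and at 119, 135 and 80.4 CPM in cDKO. Replicate 3 was the lowest cDKO library, and all 3 were below the control libraries. The log2 difference of Spi1 was -0.67 ± 0.18 at 0 min (adjusted p = 0.0371) and -0.43, -0.59 and -0.51 at 60, 180 and 540 min (0.00687, 0.0135 and 0.00915 by edgeR). At 0 min the call was lost without control replicate 1, 2 or 3, without cDKO replicate 1, or with every line of a gene summed (adjusted p of up to 0.150). At 180 min it was lost without control replicate 1 or 2 (up to 0.0727).

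Irf8 showed the largest decrease of the 10 at each time. Its product is the interferon regulatory factor that favours monocyte over granulocyte fate. Irf8 (chr8:120755176-120756694, plus strand, 3′UTR) at 0 min was at 141, 189.8 and 133 CPM in control and at 57.5, 58.1 and 49.97 CPM in cDKO. At 540 min Irf8 was at 182, 233 and 150 CPM in control and at 87.4, 70.6 and 65.2 CPM in cDKO. Control replicate 2 was the highest library at each time, and no cDKO library reached the lowest control library. The log2 differences of Irf8 were -1.47 ± 0.16, -1.46 ± 0.14, -1.32 ± 0.13 and -1.35 ± 0.17 at 0, 60, 180 and 540 min. The highest adjusted p among these was 0.000751 (edgeR), and each call held in all settings tried.

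Gfi1 encodes a zinc finger repressor needed for granulocyte differentiation, and it opposes the monocyte program. Gfi1 (chr5:107716655-107717739, minus strand, 3′UTR) at 0 min was at 193, 174 and 211 CPM in control and at 188, 158 and 144 CPM in cDKO. The genotypes overlapped at all 4 times, with log2 differences of -0.22 ± 0.12, -0.10 ± 0.11, 0.01 ± 0.14 and -0.10 ± 0.13. The lowest edgeR adjusted p was 0.283, at 0 min. A miss of the threshold does not show that Gfi1 was equal in the genotypes.

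**Figure D2:**
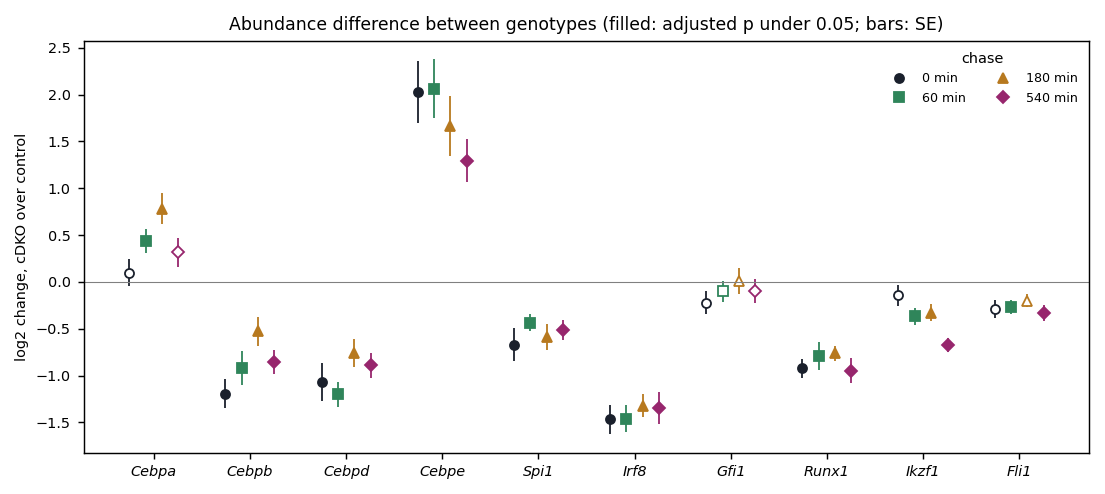
log2 ratio of cDKO over control (vertical axis, with SE bars from the edgeR fit) for each factor (horizontal axis) at each of the 4 chase times. Filled symbols mark an adjusted p under 0.05, and 0 is no difference. Irf8 lies lowest, at -1.47 to -1.32, and Cebpe highest, at 1.29 to 2.06.

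The 4 C/EBP genes went in different directions. C/EBP proteins are leucine zipper factors that bind the same DNA motif as homo- or heterodimers, with C/EBPβ prominent in emergency granulopoiesis and macrophages, and C/EBPδ induced in inflammation. Cebpb (chr2:167689913-167690432, plus strand, 3′UTR) at 0 min was at 148, 140 and 155 CPM in control and at 81.7, 56.1 and 54.3 CPM in cDKO. Cebpd (chr16:15888132-15889545, plus strand, 3′UTR) was at 54.0, 54.5 and 47.0 CPM in control and at 31.0, 24.9 and 17.5 CPM in cDKO. Both were lower in all cDKO libraries at all 4 times. The log2 differences of Cebpb were -1.19 ± 0.16, -0.92 ± 0.18, -0.53 ± 0.15 and -0.86 ± 0.13 at 0, 60, 180 and 540 min, with edgeR adjusted p of 0.00153, 0.00524, 0.0371 and 0.00183. The call at 180 min was lost without any of control replicates 1, 2 and 3 (adjusted p of up to 0.134). Those of Cebpd were -1.07 ± 0.20, -1.20 ± 0.14, -0.76 ± 0.15 and -0.89 ± 0.13, with edgeR adjusted p of 0.00879, 0.000243, 0.00559 and 0.00188. Without control replicate 2 the adjusted p of Cebpd at 0 min was 0.0530. The Cebpd interval overlaps one of Spidr on the other strand, and the handling of strand is not given in the sources used here.

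Cebpe was the only one of the 10 called higher at all 4 times. It is active late in granulocyte maturation, where it controls secondary granule genes. Cebpe (chr14:54710363-54710538, minus strand, 3′UTR) at 0 min was at 5.81, 9.02 and 9.10 CPM in control and at 42.5, 36.4 and 18.2 CPM in cDKO, which corresponds to 30 to 60 reads a library in control and 83 to 206 in cDKO. Replicate 3 was the lowest cDKO library at each time and still above every control library of that time. The log2 differences of Cebpe were 2.03 ± 0.33, 2.06 ± 0.31, 1.66 ± 0.32 and 1.29 ± 0.23, with edgeR adjusted p of 0.00468, 0.0013, 0.00489 and 0.00449. Without cDKO replicate 3 they were 2.31, 2.27, 1.94 and 1.51.

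Cebpa encodes the factor without which granulocyte-monocyte progenitors do not form. Cebpa (chr7:35120499-35121928, plus strand, 3′UTR) at 0 min was at 176, 165 and 151 CPM in control and at 150.0, 158 and 215 CPM in cDKO, and the genotypes overlapped. At 180 min it was at 105, 101 and 106 CPM in control and at 165, 141 and 237 CPM in cDKO, with no overlap, and cDKO replicate 3 was highest at each time. The log2 differences were 0.10 ± 0.14, 0.44 ± 0.13, 0.78 ± 0.16 and 0.32 ± 0.16 at 0, 60, 180 and 540 min, with edgeR adjusted p of 0.714, 0.0389, 0.00767 and 0.204. At 540 min it passed without cDKO replicate 2 (0.47, adjusted p = 0.0361). Without cDKO replicate 3 the values were -0.07, 0.25, 0.54 and 0.09, with the calls at 60 and 180 min kept. The call at 60 min was lost without control replicate 1, 2 or 3, with every line of a gene summed, or with all 24 libraries in a common fit (adjusted p of up to 0.151).

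In control cells the abundance of most factors moved during the chase, although chase time and labelled batch cannot be told apart. In an edgeR F test over the 4 times, 9 of the 10 were called in control, where 26.6% of genes were. The lowest adjusted p were those of Cebpa (6.35e-07) and Gfi1 (9.93e-06), and Irf8 did not pass (0.111), except without replicate 2, without the filter on low counts or with the replicate number as a block (0.00129). Of the others, Cebpb and Cebpe lost the call without replicate 3, Fli1 and Runx1 without replicate 2, Ikzf1 without replicate 2 or 3, and Spi1 without any replicate in turn (adjusted p of up to 0.349 among these). Cebpa in control fell from 164 ± 12.8 CPM at 0 min to 139 ± 8.30 at 60 min and 104 ± 2.61 at 180 min, and was at 181 ± 2.58 at 540 min (SD, n = 3). No library of a time overlapped with those of another. In cDKO the libraries of Cebpa overlapped between all times, from 174 ± 35.3 CPM at 0 min to 181 ± 49.6 at 180 min and 226 ± 59.3 at 540 min. Gfi1 in control was at 117, 119.6 and 112 CPM at 60 min, below the 174 to 211 CPM of 0 min. In cDKO Gfi1 was at 110, 126 and 93.6 CPM at 60 min, below the 144 to 188 CPM of 0 min. The dip of Gfi1 thus did not overlap with 0 min in either genotype. For these changes of Cebpa and Gfi1, the share of all genes that moved likewise was not counted.

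Between 0 and 540 min, 4 of 10 factors were called in control (2 higher, 2 lower), where 16.2% of genes were called, 8.06% higher and 8.18% lower. Cebpe rose by 1.12 ± 0.25 on the log2 scale (adjusted p = 0.00453) and Cebpd by 0.38 ± 0.11 (0.0314), while Cebpb fell by 0.26 ± 0.08 (0.0455) and Fli1 by 0.21 ± 0.07 (0.0376, edgeR adjusted p throughout). The call of Cebpe held with each library left out. That of Cebpd was lost without replicate 2 or 3 of 0 min or replicate 1 or 2 of 540 min. Cebpb lost it without replicate 1, 2 or 3 of 0 min or replicate 1 or 3 of 540 min. Fli1 lost it without replicate 1, 2 or 3 of 0 min or replicate 1 or 2 of 540 min. The calls of Cebpd and Fli1 were also lost with every line of a gene summed. That of Cebpb was also lost with a replicate block and with the 12 control libraries in a common fit (edgeR adjusted p of up to 0.177 in all these). In cDKO 0 of 10 were called between 0 and 540 min (edgeR; 0.117% of genes), with 3 at an unadjusted p under 0.05 and 0 called by DESeq2. Of genes, 0.00977% were called higher and 0.107% lower. The 3 were Ikzf1 (-0.31, adjusted p = 0.380), Cebpd (0.58, 0.409) and Irf8 (0.39, 0.391, all by edgeR). Over the 4 times together, edgeR called 0 in cDKO (1.09% of 10463 genes), with 5 at an unadjusted p under 0.05. DESeq2 called 4 of the factors, and 541 genes in all. The cDKO libraries of a replicate number deviated together. With the replicate number as a block, 7 of 10 were called in cDKO, where 1193 of 10463 genes were. The 7 were Gfi1 (adjusted p = 0.000321), Cebpd (0.00421), Irf8 (0.00872), Cebpe (0.0122), Fli1 (0.0150), Ikzf1 (0.0155) and Cebpa (0.0360, all by edgeR). Runx1, Cebpb and Spi1 were not called with the block, with adjusted p of 0.273, 0.374 and 0.218.

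No factor was called for a difference between genotypes in the change from 0 to 540 min. The edgeR interaction test called 0 of 10651 genes (0% of genes; 557 at an unadjusted p under 0.05), and DESeq2 called 6 genes, none of them a member of the 10. Ikzf1 was the only factor at an unadjusted p under 0.05, with a log2 difference in change of -0.51 ± 0.13 and an edgeR adjusted p of 0.852. It rose in all control libraries and fell in all cDKO libraries between the 2 times. The share of all genes with such opposite moves was not counted. For Cebpe, which rose in control, the difference was -0.71 (adjusted p = 0.984 by edgeR).

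**Figure D3:**
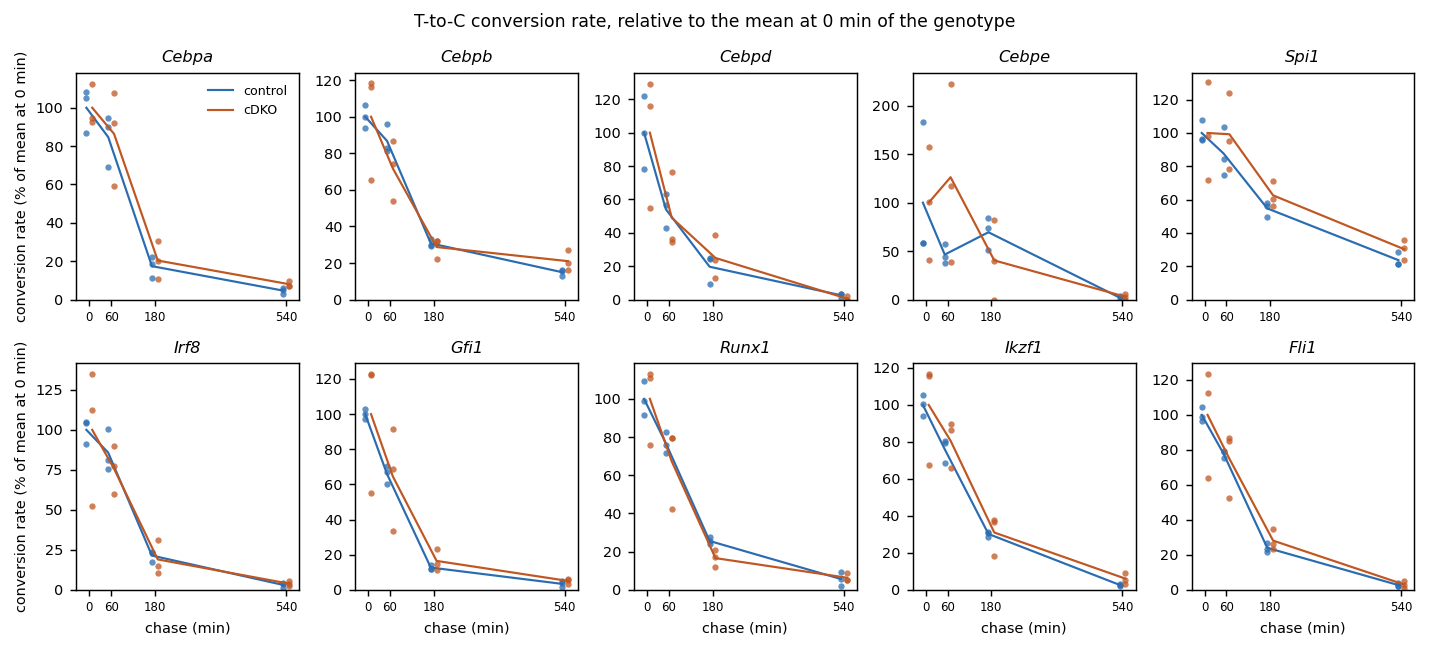
Conversion rate of each factor as a percentage of the mean 0 min rate of its genotype (vertical axis) against chase time in min. Points are libraries and lines join means of 3 replicates (blue, control; orange, cDKO). Spi1 keeps the most label at 540 min, with means of 23.7% in control and 30.3% in cDKO.

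Most of the factors lost their label quickly. Of the label present at 0 min, Spi1 kept 23.7 ± 4.35% in control and 30.3 ± 5.91% in cDKO after 540 min, and Cebpb kept 15.0 ± 1.68% and 21.1 ± 5.37% (SD, n = 3). The other 8 kept at most 5.70% in control and 8.07% in cDKO on average, where the whole library kept 19.2% and 25.4%. A set of 418 short-lived genes was chosen by control values, at a share of at most 0.2 of the label left at 180 min. Over this set, 4.03% was left in control and 7.40% in cDKO after 540 min. Because control values chose the set, its low remainder in control is partly built in, and these values cannot compare the genotypes. The 3 factors in the set, Cebpa, Cebpd and Gfi1, are there by the same rule. Spi1 and Cebpb therefore stood above the other 8 in both genotypes. In cDKO at 540 min the mean rates of those 8 were 0.00574% to 0.0596%, and that of the short-lived genes was 0.0692%. Background conversion was not measured, so its part in the label left and in the slopes below was not tested. Cebpd had lost the most label by 60 min of the factors with over 1000 covered T positions in each library, with 54.1 ± 10.4% left in control and 49.1 ± 23.7% in cDKO, and at 540 min its cDKO libraries held at most 2.13%. Cebpe was covered by as few as 328 T positions in a control library, and its rates rest on as few as 0 conversions, so its decay is poorly determined. Before the chase, the rate of a factor divided by the library-wide rate was highest in control for Cebpb (1.48, and 1.79 in cDKO), Fli1 (1.43 and 1.43) and Spi1 (1.35 in control). Between the genotypes, the edgeR test of the 0 min rate relative to the library-wide rate called 0 of 10 (0.318% of genes; 0.284% higher and 0.0341% lower), with 3 at an unadjusted p under 0.05 and 0 called by DESeq2. These were Cebpb (0.29), Gfi1 (0.25) and Runx1 (0.29, log2 of cDKO over control), with a lowest adjusted p of 0.553.

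The loss of label was also fitted as a slope of the conversion rate in log2 per hour over all times of a genotype. In control the steepest slopes were those of Fli1 (-0.59 ± 0.04, SE), Ikzf1 (-0.59 ± 0.04), Cebpd (-0.58 ± 0.06), Irf8 (-0.57 ± 0.05) and Gfi1 (-0.55 ± 0.05). Those of Cebpa (-0.51 ± 0.05), Cebpe (-0.49 ± 0.10) and Runx1 (-0.47 ± 0.04) followed, and the median of 9207 genes was -0.42. Neighbours in this order differed by no more than the sum of their standard errors. Cebpb (-0.31 ± 0.04) and Spi1 (-0.23 ± 0.03) were shallower than that median, with 73.1% and 85.5% of genes steeper. In cDKO, where the median of all genes was -0.33, Cebpd was steepest (-0.70 ± 0.08, with 1.78% of genes steeper) and Cebpb (-0.24 ± 0.04) and Spi1 (-0.20 ± 0.03) were again shallowest. The 6 factors with at least 1 ATTTA in the 3′UTR had control slopes from -0.59 to -0.47, and the 4 without it from -0.51 to -0.23. The 2 ranges overlap, and the relation was not tested.

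Between the genotypes the slopes of the factors did not differ beyond the test's threshold. The edgeR test of genotype by hour called 0 of 10 factors (0.13% of genes, all 12 with a shallower slope in cDKO), and DESeq2 called 0. The differences in slope, cDKO minus control, ranged from -0.12 to 0.13 log2 per hour, where the median of all genes was 0.07. Ikzf1 was the only factor at an unadjusted p under 0.05, with 0.13 ± 0.05 and an edgeR adjusted p of 0.176. Cebpa had a difference of 0.08, Gfi1 and Cebpb of 0.07, Spi1 of 0.03, Fli1 of 0.02, Runx1 and Irf8 of 0.01, Cebpe of -0.05 and Cebpd of -0.12. Irf8, Runx1 and Cebpd were thus lower in abundance at all times with slope differences whose adjusted p missed the threshold. Runx1 had a difference of -0.20 without the 540 min libraries and of -0.05 with the library-wide rate in the offset, so that its sign was not stable. No library of unlabelled cells was analysed here.

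A half-life from a single exponential could be given for 4 factors, those with an SD under 0.3 at 0 min in both genotypes after division by the genotype's mean. Runx1 had replicate half-lives of 116, 100 and 117 min in control against 82.0, 91.5 and 78.3 min in cDKO, with no overlap. The fits to all 12 libraries of a genotype gave 109.9 and 84.6 min. The share of all genes whose replicate half-lives did not overlap between the genotypes was not counted. Half-lives went from 116 min in control to 126 min in cDKO for Ikzf1, from 106 to 114 min for Cebpa and from 239 to 315 min for Spi1, and their replicates overlapped between the genotypes. The medians over 3712 genes were 224 and 251 min. With the log of the rate fitted as a line whose intercept was left free, they were 151.6 and 192.3 min, over 3712 genes. With 0.1% subtracted from every rate as background, they were 200.3 and 198.5 min, over 2834 genes. With 3 replicates a side an exact permutation test cannot go below p = 0.1, so these half-lives were not tested. The direction of Runx1 turned with the method: its slope difference was 0.01 log2 per hour, shallower in cDKO, and when the log of its rate was fitted as a line whose intercept was left free, its half-life was 122.8 min for control cells but 139.3 min for cDKO cells. The log2 ratio of Cebpa went from 0.11 to -0.14 without control replicate 3 and to -0.09 without cDKO replicate 2. With 0.1% subtracted from every rate as background, Cebpa and Runx1 still met the SD bound, and their log2 ratios went from 0.11 to -0.10 and from -0.38 to -0.52. The part of the lower labelling of cDKO at 0 min (0.736% against 1.64%) in these ratios was not tested.

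**Figure D4:**
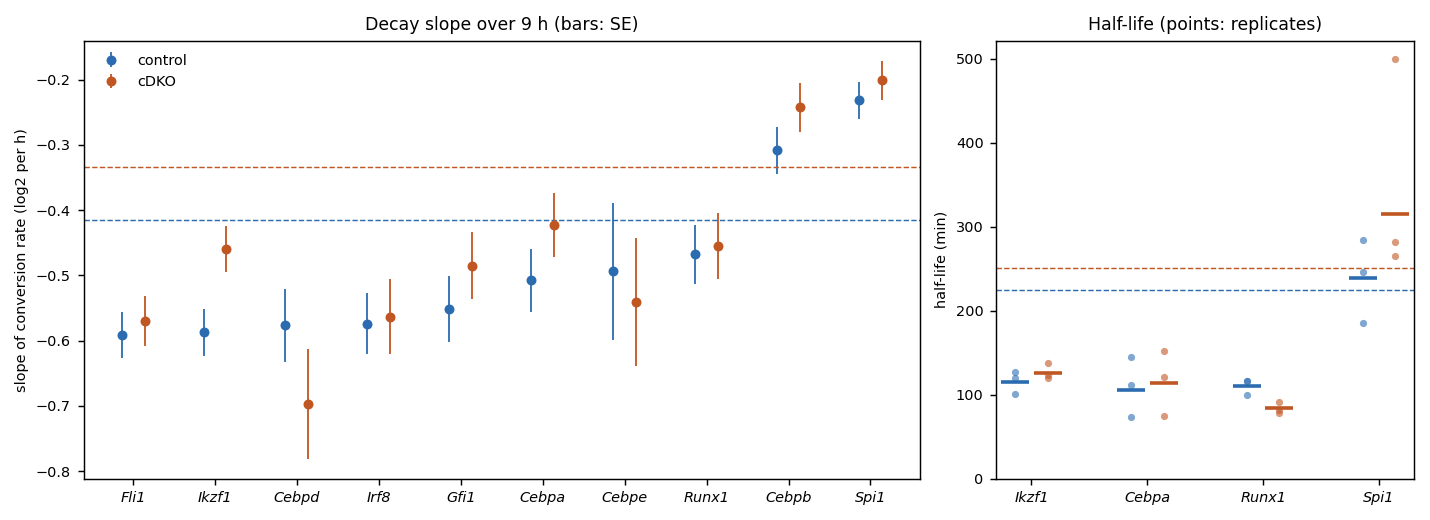
Left, slope of the conversion rate in log2 per hour (vertical axis, bars SE) for the 10 factors in control (blue) and cDKO (orange), in order of the control slope. Right, half-lives in min of the 4 factors that could be fitted, with points for replicates and short bars for the fit to 12 libraries. Dashed lines are medians of all genes. Spi1 and Cebpb lie above the median slope of all genes and the other 8 below it in both genotypes.

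Relatives and cofactors of the 10 were described with lists chosen by family, and their counts stand beside 6.72% of all genes called higher and 6.64% called lower at 0 min, and 8.89% to 9.97% and 9.78% to 10.4% at the later times. Of 12 ETS genes tested at 0 min, 3 were called higher in cDKO and 0 lower, where Spi1, an ETS gene too, was lower. Erg, a stem cell ETS factor, was at 10.97 ± 3.60 CPM in control and 49.0 ± 5.42 in cDKO (log2 2.18), Ets1 at 27.7 ± 1.61 and 66.5 ± 6.75 (1.28), and Elk1 at 3.67 ± 0.413 and 19.6 ± 2.76 (2.43). The median log2 change of the ETS genes was 0.04. At 60, 180 and 540 min 4, 3 and 3 of the 12 were higher and 0, 2 and 2 lower (Etv3 and Elk3, named after their values were seen), with Elf1 as the other higher call at 60 min and a median of -0.10 at 540 min. Of 6 IRF genes, 0 were higher and 1 was lower, Irf9, a partner of STAT proteins in interferon signalling (-0.61, adjusted p = 0.0301 by edgeR, named after its value was seen). Of 14 other leucine zipper genes tested, the lowest edgeR adjusted p at 0 min was 0.0610, for Nfe2l2 (-0.45), so that none was called. Their median log2 change was -0.00. Calls were made later: at 60 min Cebpg, Junb, Jund and Fosb were higher and Nfe2l2 was lower of 16 (median 0.28), at 180 min Cebpg, Jund and Fosl2 were higher of 14 (0.37), and at 540 min Jun and Nfe2l2 were lower of 14 (0.02), all named after their values were seen. Irf9 was lower at 60 min, Irf1 at 180 min and both at 540 min among the IRF genes.

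Of 13 relatives and cofactors of RUNX1, GFI1 and IKAROS, 4 were called higher at 0 min (6.72% of all genes) and 0 lower (6.64%). Ikzf2, which encodes the IKAROS relative HELIOS, was at 2.52, 9.96 and 12.1 CPM in the control libraries in order of level and at 422, 428 and 574 CPM in cDKO, a log2 difference of 5.83 ± 0.37 (edgeR adjusted p = 4.37e-05). No other gene tested of the ETS, IRF, leucine zipper and RUNX lists had a log2 difference of that size at 0 min, while Ikzf1 itself was at -0.14. Trib1, whose product promotes breakdown of C/EBPα, was at 4.15 ± 1.41 CPM in control and 22.9 ± 2.57 in cDKO (2.46), and Runx2 at 104 ± 10.5 and 161 ± 14.1 (0.64). The other gene was Trib3 (0.95, named after its value was seen). At 60, 180 and 540 min 4, 5 and 3 of the 13 were higher, and Chd4 was lower at 540 min. Of 12 stem cell and other lineage factors, 4 were higher and 2 lower at 0 min. Gata2 was at 3.95 ± 2.02 CPM in control and 104 ± 43.4 in cDKO (4.69), and Id2 at 26.8 ± 1.33 and 9.48 ± 6.95 (-1.50). Hoxa9, which was also transduced, was at 2615 ± 178 and 5393 ± 1021 (1.06). Hlf, a stem cell factor, was at 0 in the 3 control libraries of 0 min and at 27.2, 105 and 242 CPM in the cDKO libraries in order of level. Tal1 (2.19) and Zeb2 (-0.68) were the other calls, named after their values were seen. At 60, 180 and 540 min 5 of 12, 4 of 11 and 3 of 11 were higher, Gata2, Hoxa9 and Hlf at each, and 2 were lower at each, Id2 with Lyl1 at 60 min and with Zeb2 later.

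Of 25 myeloid genes tested that C/EBP, PU.1 and their partners are known to regulate, 14 were lower in cDKO at 0 min and 2 higher. Of all genes, 6.64% were lower and 6.72% higher. The median log2 change of the 25 was -0.75. Elane, the neutrophil elastase gene, was at 1342 to 1570 CPM in control and at 15.3, 27.2 and 169 CPM in cDKO (-4.41 ± 0.74, edgeR adjusted p = 0.00507). Cybb, a subunit of the phagocyte oxidase, was at 35.1 ± 10.6 CPM in control and 1.94 ± 2.67 in cDKO, and Mmp8, the neutrophil collagenase, at 31.3 ± 9.48 and 0.343 ± 0.119. S100a8 was at 23.2 ± 3.28 CPM in control and had reads in 1 cDKO library only, at 0.457 CPM. The 2 called higher were Adgre1, which encodes F4/80 (3.35), and Csf2rb, the common β chain of the IL-3 and GM-CSF receptors (1.07), both named after their values were seen. The counts at the later times were 14, 16 and 15 lower of 25 at 60, 180 and 540 min and 2 higher at each. Of all genes, 9.78% to 10.4% were lower and 8.89% to 9.97% higher at these times.

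Markers of other lineages moved with the genotype, and their part in the results above was not tested. Their counts stand beside 6.72% of all genes called higher and 6.64% called lower at 0 min. At 0 min the summed level of 9 mast cell and basophil markers was 21.7 to 28.0 CPM in control and 164 to 322 CPM in cDKO, with 3 of 5 tested called higher (Gata2, Cpa3 and Hdc). Mcpt8, the highest of them in control, was at 13.66 ± 2.11 CPM in control and 11.04 ± 1.72 in cDKO. Of 10 erythroid markers, only Hbb-bt could be tested, at 0 to 2.71 CPM in control libraries of all times and at 1300 to 2075 CPM in cDKO, while Epor, Gata1, Car1 and Alas2 were at 0 in all libraries of 0 min. Klf1, the highest of these in control, was at 0.652 ± 0.488 and 0.387 ± 0.358 CPM at 0 min. Hbb-bt has a near-identical copy, Hbb-bs, so its count is uncertain. Of 6 genes listed for stroma only Pecam1 could be tested, at 87.4 ± 30.5 CPM in control and 361 ± 49.2 in cDKO. Pecam1 is not specific to stroma, and Col1a2, Col3a1, Dcn and Pdgfra were at 0. The summed level of 8 haematopoietic progenitor markers at 0 min was 3654 to 3968 CPM in control and 5452 to 7272 CPM in cDKO. Hoxa9, also a transduced gene, made up most of it, at 2615 ± 178 and 5393 ± 1021 CPM. Reads of its retroviral and endogenous copies were not told apart. Of 7 markers tested at 0 min, 1 was called higher (Hoxa9) and 0 lower. At the later times 1 of 7 was higher (Hoxa9), and those called lower were Ptprc and Mpo at 60 min, Ptprc and Kit at 180 min and Ptprc at 540 min. Kit was at 71.4 to 86.0 CPM in control and at 27.2 to 60.0 CPM in cDKO. Of 6 megakaryocyte markers 2 were tested and 1, Itga2b, was higher (0.432 ± 0.457 CPM against 14.6 ± 2.59), while Pf4 was at 3.77 ± 1.75 and 1.29 ± 1.06 CPM. Nkg7 was the only T and NK cell marker tested, at 4.19 ± 1.00 and 3.34 ± 1.32 CPM, and no B cell or dendritic cell marker had enough reads to be tested. The highest of the B cell markers were Ebf1 in control and Cd79b in cDKO, at most 0.205 and 0.436 CPM in any library, and of the dendritic cell markers H2-Aa and Itgax, at most 0.802 and 1.97 CPM.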

How the data were processed

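The authors made 3′-end libraries (QuantSeq FWD) of 24 samples and ran SlamDunk 0.4.3 over 3′UTR intervals of mm10 (GRCm38, per the submitters' processing notes). Alignment, filter and strand settings are not given in the sources used here. Each deposited table holds read counts, conversion counts and covered T positions per interval. Per the file headers the deposited conversion rate is conversions divided by covered T positions, a fraction, and the deposited CPM is scaled by the authors to filtered reads. Reads, rates and CPM per 3′UTR reads were recomputed here from the counts.

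Transcript accessions were matched to symbols of GRCm38.p6 (99.17% of 39419 lines), the longest of overlapping intervals of a gene was kept, and counts were summed over 20868 genes. Groups and replicate numbers came from the labels. Abundance was tested with edgeR 4.0.16 (quasi-likelihood, TMM, filterByExpr, R 4.3.3) and Benjamini-Hochberg adjustment over all genes tested, and DESeq2 1.42.0 was an alternative. Decay was tested as genotype by hour on conversion counts, with the log of covered T positions as offset, for genes with at least 100 covered T positions in each library and 50 conversions in all. Half-lives were single exponentials fitted to rates over the genotype's 0 min mean, bounded to 1 and 10000 min. The abundance test of genotype at 0 min, the test of genotype by hour and the half-life fit were tried on simulated data. The other tests and settings were not. Python 3.11.15 and SciPy 1.17.1 were used for the fits of half-lives.

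The depth of 4380238 to 7041311 3′UTR reads per library sets the counting error, and libraries carry no molecular identifiers. Replicate numbers were checked for pairing by the correlation of deviations from group means. It was -0.09 to 0.11 between genotypes at a given time and -0.04 to 0.17 between times within control, but 0.30 to 0.80 between times within cDKO, where the numbers pair the samples; they are given by the labels. All 10 factors are named in every comparison. Of each list of relatives, up to 4 genes are named, by largest log2 change at 0 min, among those called at 0 min with at least 10 CPM in a genotype and no overlap of the genotypes at any time. Of each marker list, the highest gene in each genotype is named. The factors and lists were chosen with earlier results of these data known. edgeR with DESeq2 size factors, no filter, all lines of a gene, a replicate block, each replicate left out and common fits were tried as alternatives.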

Additional observations from a re-analysis of the deposited data

Results flagged for a closer look

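Ikzf1 abundance moved in opposite directions in the genotypes between 0 and 540 min. Its mean rose by 36.1 CPM in control, where each of the 3 libraries of 540 min was above each of 0 min, and changed by -33.2 CPM in cDKO, where each was below. The difference was tested by the edgeR interaction of genotype and time, with an adjusted p of 0.852 and an unadjusted p of 0.00175, and did not pass. Chase time and labelled batch cannot be told apart.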

How the results depend on the processing

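The log2 values printed for the 10 factors, and those of Tut4 and Tut7 at 0 min, were recomputed over the settings. Of the recomputed values, 742 kept their direction and side of the threshold, 48 lost the call, 8 gained it and 22 changed sign. The cause of these shifts was not tested. The log2 values of relatives, target genes and markers are not in these counts. The genes called at 0 min numbered 1360, against 2292 with all 24 libraries in a common fit and 3433 with the counts of the 4 times summed per replicate number, a setting chosen after seeing the data, in which 8 of the 10 factors were called. With each replicate left out, the calls ranged from 633 to 2223 at 0 min, 1296 to 2331 at 60 min, 1155 to 2161 at 180 min and 1182 to 2070 at 540 min, and from 1007 to 1722 for 540 against 0 min in control (1660 with all), 1281 to 1872 for any time in control (2756), 0 to 5 for 540 against 0 min in cDKO (12), 0 to 23 for any time in cDKO (114), 0 to 1 for the interaction (0), 3 to 30 for decay (12) and 13 to 49 for labelling (28). The factors called ranged from 5 to 9 at 180 min (8 with all; 5 without control replicate 1 or 2), 1 to 4 for 540 against 0 min in control (4; 1 without replicate 2 or 3 of 0 min or replicate 1 of 540 min, 2 without replicate 1 of 0 min or replicate 2 of 540 min) and 5 to 8 for any time in control (9; 5 without replicate 3, 6 without replicate 2).

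In cDKO, 540 against 0 min gave 123 genes by DESeq2, 3 with all lines of a gene summed, 128 with a replicate block and 103 with 12 libraries in a common fit, and any time gave 541 genes by DESeq2 (4 factors) and 1193 with the block (7 factors). The interaction gave 6 genes by DESeq2 and 6 with a replicate block within each genotype, chosen after seeing the data. Decay gave 207 genes by DESeq2, 23 with the library-wide rate in the offset, 1 without the 540 min libraries, 29 with all lines summed, 24 with a replicate block and 59 with the block within each genotype. Labelling gave 8 genes with all lines summed, and 7456 genes with 9 factors when set against T coverage alone. The replicate block across genotypes, whose numbers share only a label, gave 1087, 1783, 1717 and 1580 genes at 0, 60, 180 and 540 min (1360, 2046, 1915 and 1977 without it); of the factors it ended the call of Fli1 at 540 min.

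Some values changed sign. With the library-wide rate in the offset, the slope differences were -0.0235 for Fli1, -0.0496 for Irf8, -0.0452 for Runx1 and -0.0116 for Spi1. Without the 540 min libraries they were -0.0122 for Cebpb, 0.110 for Cebpd, -0.0255 for Irf8 and -0.195 for Runx1. With each replicate left out they ranged from -0.0385 to 0.0847 for Fli1, -0.0234 to 0.0611 for Irf8 and -0.0432 to 0.0827 for Runx1. Abundance differences ranged from -0.0697 to 0.204 for Cebpa at 0 min, and for Gfi1 from -0.210 to 0.0024 at 60 min, -0.117 to 0.128 at 180 min and -0.177 to 0.0226 at 540 min. Against T coverage alone, labelling was -0.86 for Cebpb, -0.89 for Gfi1 and -0.86 for Runx1, and other factors were lower too (-1.13 for Fli1, -1.10 for Ikzf1, -1.12 for Irf8 and -0.99 for Spi1). The median log2 ratio of half-lives was 0.12 over 4 factors. With the log of the rate fitted as a line with a free intercept it was 0.27, also over 4 factors. With 0.1% subtracted from every rate it was -0.31 over Cebpa and Runx1, which alone still met the SD bound, so the medians are over different sets. With each replicate left out it ranged from -0.27 (2 factors, without cDKO replicate 2) to 0.22, and was -0.06 without control replicate 3 and -0.04 over 9 factors without cDKO replicate 3. Cebpe and Cebpd rest on few conversions, which limits their decay values.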
